A study of Mus musculus with 3 samples.

Results

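The heat shock chaperones described here are 10 genes chosen by name: Hspa1a, Hspa1b, Hsph1, Dnajb1, Hspb1, Hspa8, Hsp90aa1, Bag3, Hspe1 and Hspd1. All 10 were found, each by a single symbol, among the 50262 genes of a single-cell RNA sequencing table of mouse glioblastoma (GBM). The choice was made with earlier results of these data known, so the levels of the 10 genes by sort, stage, library and cell class are given as a description and carry no test between groups. The question was whether Hspa1a and Hspa1b were high in some microglia or in all cells of a library.

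The tumors came from a genetically engineered model in which human EGFR (wild type) is overexpressed from a conditional transgene, Cdkn2a is deleted in the germ line (Cdkn2a-/-) and a conditional luciferase reporter is carried. Cre from a lentivirus injected into the striatum of adult mice of mixed background started them, and cells the virus did not reach kept the conditional alleles unrecombined. Every group shared this genotype and this injection, brains were minced and digested with collagenase at body temperature, and viable CD45+ and CD45- cells were sorted and encapsulated on the inDrop droplet system. The 3 GEO samples are 3 sequencing runs, each a mixture, and the deposited annotation assigns their 24 libraries to early, medium or late tumors (late is "large" in the labels) and to the CD45+ or CD45- sort, with 4 libraries for each stage and sort. Each stage is 1 tumor sample, early cells were pooled from more than 1 animal, and the 4 libraries are technical repeats of 1 cell suspension, so no test between stages was possible, and stage, tumor and handling cannot be told apart.

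Heat shock chaperones bind unfolded or partly folded proteins and help them refold or pass them on for degradation. Under proteotoxic stress, such as heat, the transcription factor HSF1 binds repeated GAA/TTC units (heat shock elements) in their promoters and transcription rises within minutes, most of all for the inducible HSP70 genes Hspa1a and Hspa1b. In brain, enzymatic dissociation at warm temperature is known to raise heat shock and immediate-early transcripts, with microglia among the cells that respond, and fever, ischemia and inflammation raise heat shock transcripts in vivo.

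Hspa1a and Hspa1b are intronless neighbors on the minus strand (GRCm38, chr17:34969190-34972156 and chr17:34956436-34959238), 9951 bases apart. Their promoters are shown because the transcripts of both genes moved together below. Each line gives the 250 bases upstream of the RefSeq start (GRCm38.p6), 5′ to 3′ on the gene's strand, with a match to GAANNTTC or TTCNNGAA, 2 adjoining units of a heat shock element on either strand, in capitals (chr17:34972157-34972406 and chr17:34959239-34959488):
Hspa1a: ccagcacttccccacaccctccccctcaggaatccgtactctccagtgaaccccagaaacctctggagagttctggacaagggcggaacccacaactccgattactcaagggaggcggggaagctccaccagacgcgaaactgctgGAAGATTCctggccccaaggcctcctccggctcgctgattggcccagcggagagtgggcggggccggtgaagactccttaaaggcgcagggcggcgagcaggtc
Hspa1b: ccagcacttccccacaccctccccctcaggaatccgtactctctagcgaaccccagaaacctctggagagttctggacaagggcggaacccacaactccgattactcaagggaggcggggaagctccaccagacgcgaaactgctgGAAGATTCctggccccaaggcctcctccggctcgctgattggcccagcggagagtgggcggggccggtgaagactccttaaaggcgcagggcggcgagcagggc
The windows were identical at 247 of 250 bases (98.8%), the differences being C44T, T47C and T249G (position from 1 at the 5′ end, the Hspa1a base first), and the match lay 104 bases before the start in both.

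The next sequences contrast Hspe1, which with Hspd1 held the most matches (3, overlapping) of the 8 members with a promoter in the table used, with a Dnajb1 window without a match (Hspe1 chr1:55087898-55088147, plus strand, and Dnajb1 chr8:83607925-83608174, plus strand):
Hspe1: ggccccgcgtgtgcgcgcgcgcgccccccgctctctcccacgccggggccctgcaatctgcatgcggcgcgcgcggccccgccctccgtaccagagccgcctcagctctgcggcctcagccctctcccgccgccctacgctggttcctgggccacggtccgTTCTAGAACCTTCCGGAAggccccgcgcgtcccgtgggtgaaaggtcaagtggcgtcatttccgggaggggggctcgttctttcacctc
Dnajb1: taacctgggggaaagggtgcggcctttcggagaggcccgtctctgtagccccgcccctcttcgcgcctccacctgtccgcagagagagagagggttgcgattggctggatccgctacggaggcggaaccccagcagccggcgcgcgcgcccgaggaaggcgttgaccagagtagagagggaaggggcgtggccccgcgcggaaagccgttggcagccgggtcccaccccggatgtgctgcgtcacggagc
At least 1 match to 2 units was found for 6 of the 8 members (Hspa1a, Hspa1b, Hsph1, Hspb1, Hspe1 and Hspd1), and in 12.8% of 32851 promoters of the same length. Here and below members were counted by gene, over all windows of a gene, and the background by single window, so the units differ. Hspd1 held matches only in the window that overlaps that of Hspe1, and its other window had none. Hspe1 and Hspd1 also held 3 adjoining units (either motif, then NN and a further GAA or TTC that goes on alternating), found in 0.466% of promoters. These genes, the cochaperonin and chaperonin of the mitochondrial matrix, lie head to head on chromosome 1, and the capitals above fall in a window of both. The letters CCAAT, read on either strand, were present for 4 of the 8 members (33.8% of promoters) and TATAAA for 0 (12.4%). In the windows printed for Hspa1a, Hspa1b and Dnajb1 the former lay on the strand opposite the gene. No promoter window was printed for Hspa8 or Hsp90aa1.

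After filtering, 17781 cells with 51168586 unique molecular identifiers (UMIs, 1 for each captured RNA molecule) were analysed, from 17 to 1751 cells a library. Hspa1a had 12113 UMIs in all and Hspa1b 15925, found in 18.3% and 16.9% of cells. Dnajb1 had 12798, Hspa8 35603, Hsp90aa1 26855, Hspe1 13890, Hspd1 6671, Hsph1 3768, Hspb1 2573 and Bag3 1664. Levels below are UMIs per 1000000 UMIs of the same cells (CPM). Of the 31-base words in the last 500 transcript bases, 0% of Hspa1a and 2.15% of Hspa1b occurred in another gene, and the words of Hspa1b were not those of Hspa1a, so the 3′ ends of the pair could be told apart. For Hspb1 27.0% were shared with Hsp25-ps1 and for Hspa8 49.6% with 12 genes, so those levels are less certain. The antisense gene Gm20481 overlaps Hspa1a, and whether counting used strand is not given in the sources used here. The cell codes were not unique to a library: 2117 of 18335 codes occurred in more than 1. The sort was checked with Ptprc, which encodes CD45 and was higher in CD45+ cells by 5.11 on the log2 scale (edgeR adjusted p = 0.000257). The early CD45- libraries held 0 to 20.2 CPM of human EGFR, against 639 to 823 in medium and 1070 to 1377 in late ones, so the early ones held few cells with the transgene transcript.

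Hspa1a stood at 586, 624, 552 and 564 CPM in the 4 early CD45+ libraries, at 109, 127, 141 and 135 in the 4 medium ones and at 0, 60.5, 218 and 241 in the 4 late ones. All 4 early libraries were above every other CD45+ library. The late libraries at 0 and 60.5 CPM were both of run 1 and held 17 and 91 cells. The library at 0 allowed up to 48.1 CPM (a count of 3), below the other late libraries. In CD45- cells Hspa1a stood at 118, 259, 242 and 156 CPM early, 131, 154, 141 and 102 medium, and 61.5, 71.4, 68.5 and 91.7 late. The CD45- stages were closer together: early and medium libraries overlapped, and all late ones were below them.

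Hspa1b followed the same order. Its levels were 828, 835, 605 and 755 CPM in early CD45+ libraries, 155, 182, 175 and 166 in medium ones and 16.0, 49.2, 223 and 277 in late ones. In CD45- libraries they were 213, 379, 388 and 216 early, 132, 187, 167 and 164 medium, and 88.7, 124, 70.1 and 154 late. Early CD45+ libraries again did not overlap any other library, whereas late and medium CD45- libraries overlapped.

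**Figure D1:**
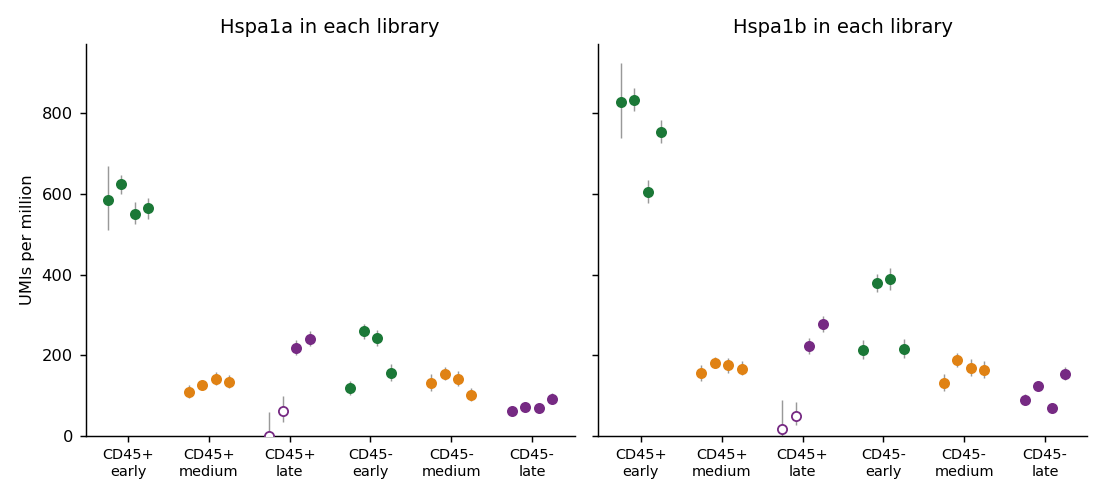
Level of Hspa1a (left) and Hspa1b (right) in each of the 24 libraries, in CPM, by sort and stage. Points are technical libraries in order of run, bars are exact 95% Poisson intervals and open points are libraries of fewer than 100 cells. The early CD45+ libraries sit between 552 and 624 for Hspa1a and between 605 and 835 for Hspa1b, above all others.

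Dnajb1, a J protein that stimulates the ATPase of HSP70, showed the same pattern in CD45+ cells. It stood at 764, 573, 607 and 535 CPM in early, 120, 151, 147 and 120 in medium and 32.1, 90.8, 243 and 252 in late libraries. Hspa8, the constitutive HSP70 of the cytosol, varied far less, from 874 to 1012 CPM in early, 575 to 667 in medium and, apart from the library of 17 cells at 449, 837 to 887 in late CD45+ libraries. Hsp90aa1, the inducible HSP90 of the cytosol, was at 438 to 532 CPM in early, 236 to 282 in medium and 311 to 386 in late CD45+ libraries, and at 851 to 1180 in early CD45- libraries. The mitochondrial pair did not follow. Hspe1 was at 178 to 253 CPM in early CD45+ libraries, below all 4 medium libraries at 281 to 324, and Hspd1 was at 79.4 to 118 CPM early and 101 to 114 medium, which overlapped.

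The remaining members were low. Hsph1, an HSP110 that acts as the nucleotide exchange factor of HSP70, was at 51.8 to 68.9 CPM in early CD45+ libraries, 26.5 to 30.4 in medium and, leaving out the 17 cells at 96.3, 23.3 to 34.6 in late ones. Bag3, an HSP70 co-chaperone of selective autophagy, was at 33.1 to 43.0 CPM in early CD45+ libraries, 20.7 to 23.1 in medium and, leaving out the 17 cells, 22.5 to 22.7 in late ones. In CD45- libraries Bag3 was at 19.8 to 29.0 CPM early, 20.9 to 56.4 medium and 35.7 to 51.0 late, so there the late libraries were above all early ones. Hspb1, a small heat shock protein that holds unfolded clients, was at 14.6 to 36.0 CPM in early CD45+ and 72.8 to 158 in early CD45- libraries. At each stage every CD45- library was above every CD45+ library for Hspb1.

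Cells were then grouped by class. Clusters were formed without the members and took a name from markers, microglia-like cells from P2ry12, Tmem119 and the like, and 50 groups of class, sort and stage held at least 50 cells. Over these groups Hspa1a ran from 5.36 to 2042 CPM and Hspa1b from 7.74 to 2844, while Hspa8 ran from 206 to 1797 CPM, Hspd1 from 28.8 to 274 and Hspe1 from 48.8 to 509. The ratio of the highest to the lowest group was 381 for Hspa1a, 367 for Hspa1b and 8.71 for Hspa8.

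The highest level of Hspa1a and Hspa1b together was in endothelial cell-like cells, not in microglia-like cells. Endothelial cell-like cells of the CD45- sort held 4886 CPM (209 cells) in early, 3067 (164 cells) in medium and 1604 (95 cells) in late tumors. Border or perivascular macrophage-like cells followed in early tumors with 1911 CPM, against 463 medium and 452 late. Microglia-like cells of the CD45+ sort held 1450 CPM in early (3915 cells), 880 in medium (714 cells) and 917 in late tumors (1001 cells). The clusters behind this class differed in number with the stage: that led by Tmem119 and Gpr34 held 1044 early, 59 medium and 535 late cells and that led by Tnf and Gem 1185, 182 and 148, and their levels are given separately below. Next among early groups were the cluster led by Mki67 and Top2a at 1286 CPM, the cluster led by Ccr7 and Xcr1 at 1263, ependymal cell-like cells at 1162 and the cluster led by Cxcl9 and Ifi44 at 1077. These early groups lay between 1077 and 1450 CPM and their order is not firm: in single libraries the range of the Ccr7 and Xcr1 cluster (591 to 2169 CPM) and that of the Cxcl9 and Ifi44 cluster (715 to 1854) both held the whole range of microglia-like cells (1288 to 1638).

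At the other end, choroid plexus epithelium-like cells held 20.6 CPM in early tumors, in the same libraries and at the same time as the endothelial cells. Neuron-like cells held 68.1 CPM early and 32.5 late. Oligodendrocyte-like cells held 330 CPM early, 128 medium and 195 late, and the cluster led by Rnase2a and Spp1 95.8, 70.5 and 77.8. High levels thus were not shared by all cells of a library. In 9 of 9 CD45- libraries with at least 20 endothelial cell-like cells, these were the class with the highest level of all classes of that size (1931 to 5949 CPM), and choroid plexus epithelium-like cells of the 4 early CD45- libraries stood at 0 to 26.8 CPM.

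The immediate-early list, 22 genes such as Fos, Jun and Egr1 that are induced by many stimuli, dissociation among them, was high in most of the same groups. It summed to 23697 CPM in early endothelial cell-like cells, 30649 in border or perivascular macrophage-like cells and 27344 in CD45+ microglia-like cells, and to 878 in choroid plexus epithelium-like, 2318 in neuron-like and 2822 in oligodendrocyte-like cells. Its part in the chaperone levels was not tested.

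**Figure D2:**
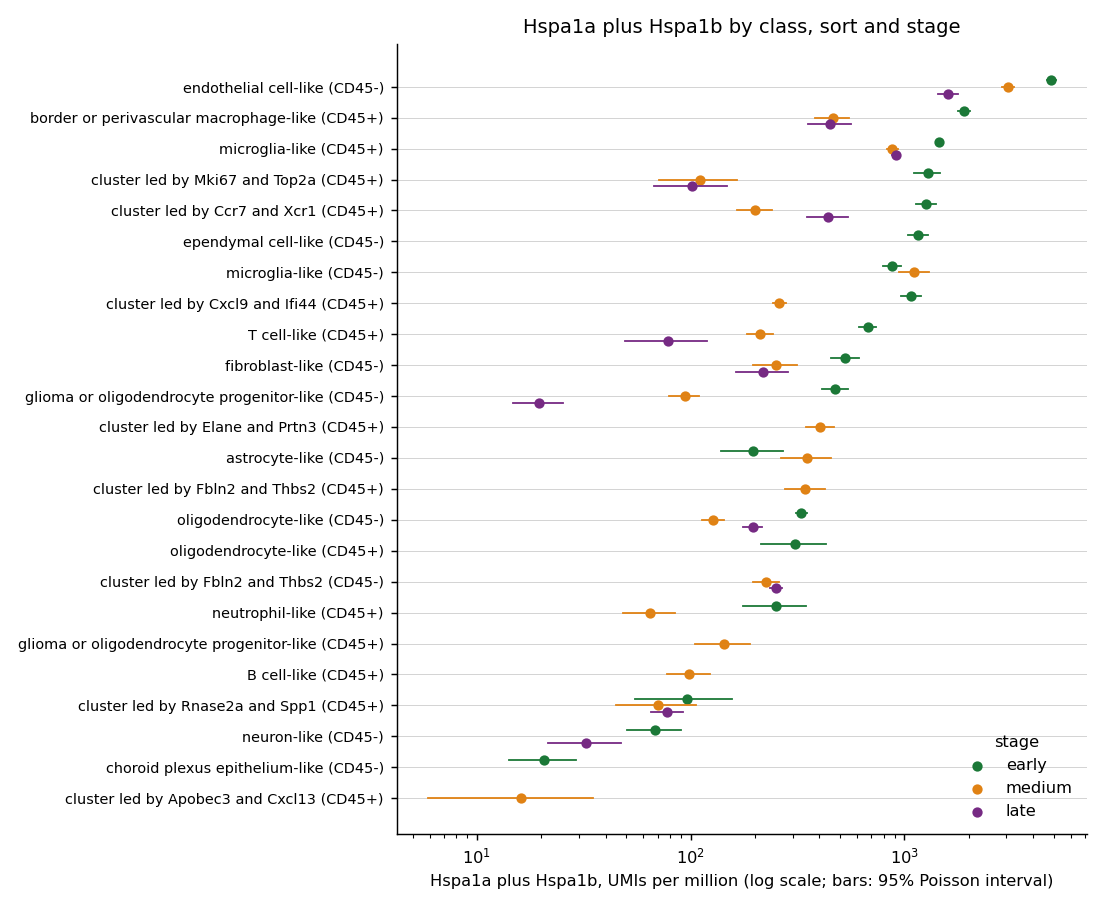
Hspa1a plus Hspa1b in CPM (log axis) for each class of at least 50 cells, by sort and stage. Points are groups and bars exact 95% Poisson intervals. Endothelial cell-like cells stand highest at each stage, 4886 to 1604, and choroid plexus epithelium-like cells at 20.6.

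Within the CD45+ libraries the place of microglia-like cells differed with the stage. They were the class with the highest level in 4 of 4 medium libraries and in 3 of 3 late ones that held other classes of at least 20 cells, and in 0 of 3 early ones. In the late library with 22 microglia-like cells, the only other such class was the Rnase2a and Spp1 cluster. Intervals overlapped there (from 121 CPM in microglia-like cells, up to 134 in the cluster). They also overlapped in a medium library of run 2 (from 824 CPM, against up to 903 in border or perivascular macrophage-like cells). Border or perivascular macrophage-like cells held 1629 to 2259 CPM in the 3 early libraries, against 250 to 719 in the 4 medium ones. T cell-like cells held 268 to 960 CPM in early, 160 to 309 in medium and 57.0 to 110 in late libraries.

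RNA released by damaged cells gives UMIs to all droplets of a library, so the share of microglial signal in other classes was measured with P2ry12, a microglial purinergic receptor. Early T cell-like cells held 14.9% of the P2ry12 level of microglia-like cells and 46.5% of their Hspa1a plus Hspa1b level. Border or perivascular macrophage-like cells held 10.9% and 132%, and the Ccr7 and Xcr1 cluster 5.02% and 87.1%. In these early classes the chaperone share was above the P2ry12 share. P2ry12 itself, at 1000 UMIs a cell, was higher in cells with a UMI of the pair than in those without in early T cell-like cells (ratio 2.19, 95% interval 1.51 to 3.16) and in the Cxcl9 and Ifi44 cluster (1.60 early, with the interval above 1, and 3.37 medium, 2.73 to 4.15), and it was at 0.941 (0.602 to 1.46) in early border or perivascular macrophage-like cells. The part of microglial RNA in the levels of these classes was not tested. The cluster led by Rnase2a and Spp1 held 8.48% of P2ry12 and 6.60% of Hspa1a plus Hspa1b early, 8.21% and 8.01% medium, and 6.68% and 8.48% late. Late T cell-like cells were alike (8.95% and 8.56%), and the Mki67 and Top2a cluster held 84.9% and 88.7% early but 32.7% and 12.6% medium and 21.4% and 11.1% late. The levels of the Rnase2a and Spp1 cluster, of late T cell-like cells, of early neutrophil-like cells (25.0% and 17.3%) and of the medium Apobec3 and Cxcl13 cluster (16.7% and 1.83%) were at or near that background and are not read as expression. Medium and late cells of the Mki67 and Top2a cluster held more P2ry12 (829 and 590 CPM) than all other CD45+ classes listed but microglia-like cells. Their P2ry12 may not measure free RNA alone, and their chaperone levels are not read as expression either.

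Comparing the same class between stages, early cells were higher than late cells in 11 of 11 classes, in 10 of them with a counting interval above 1 and in 8 by at least 2-fold (median fold 2.88). Early cells were higher than medium cells in 12 of 14 classes, among them neutrophil-like cells and the Rnase2a and Spp1 cluster with early levels at background, in 9 of them by at least 2-fold (median fold 2.88). Pooled over the same classes, 10.5% of all gene values were at least 2-fold higher early than late (4.54% to 17.8% by class) and 12.1% early than medium (5.42% to 21.8%). The fold of early over late was 1.58 in microglia-like cells (95% counting interval 1.51 to 1.66), 1.69 in oligodendrocyte-like cells (1.51 to 1.90), 3.05 in endothelial cell-like cells (2.70 to 3.44) and 4.23 in border or perivascular macrophage-like cells (3.34 to 5.43). It was 8.58 in T cell-like cells (5.60 to 13.8), over a late level at background. It was 12.6 in the Mki67 and Top2a cluster (8.47 to 19.5), over a late level not read as expression. In that cluster the P2ry12 level fell from 2937 CPM early to 590 late, so its early and late cells differed in that microglial marker. Microglia-like cells, the class that makes up most of the early CD45+ sort, thus had the smallest fold but for the Rnase2a and Spp1 cluster at background (1.23, 0.684 to 2.08). The ratio in glioma or oligodendrocyte progenitor-like cells was 24.4 (18.1 to 33.4), over a late level of 19.5 CPM that is no higher than in choroid plexus epithelium-like cells, and the early cells of that name held 0 CPM of human EGFR against 2581 in the late ones, so they are not the same cells. The exceptions were medium astrocyte-like cells (350 CPM against 196 early, 56 and 85 cells) and medium microglia-like cells of the CD45- sort (1116 against 878, 64 and 229 cells), where the single medium library with 20 such cells stood at 2541 CPM. These intervals cover counting error only, with each UMI taken as independent, for 1 tumor sample a stage.

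The other members, followed over the same classes, split into groups. No share of all genes is given for direction alone, so these counts are a description. The classes include glioma or oligodendrocyte progenitor-like cells and the Mki67 and Top2a cluster, whose early and late cells differed (above). Dnajb1 was higher in early than late cells in 11 of 11 classes and than medium cells in 14 of 14 (median folds 1.87 and 2.42). It was at least 2-fold higher in 5 of 11 and 7 of 14, beside 10.5% and 12.1% of all gene values. Hspa8 was above medium in 14 of 14 classes but by 1.38 at the median and at most 1.86-fold, and above late in 7 of 11. Hsp90aa1 was above late in 9 of 11 classes and Hsph1 in 8 of 11. Hspe1 was above late in 5 of 11 classes and Hspd1 in 0 of 11, its fold running from 0.462 to 0.895, with 2 of 11 counting intervals below 1. Against medium cells Hspd1 was higher in 4 of 14 classes. Bag3 was above late in 8 of 9 classes with enough UMIs but above medium in 5 of 11 (median fold 0.901). Over the 14 classes, the immediate-early list was higher in early than medium cells in 13 and lower in 1, and in 9 of 11 against late cells, with a median fold of 1.13.

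Classes also differed in which members they held. Hspb1 was at 1672, 1704 and 882 CPM in early, medium and late endothelial cell-like cells, at 578, 523 and 301 in fibroblast-like cells and at 402 in ependymal cell-like cells, and at 25.4 or below in microglia-like cells of the CD45+ sort. Hsp90aa1 was highest in ependymal cell-like cells (4135 CPM, 92 cells), then in oligodendrocyte-like cells (1078 early, 873 medium and 1048 late) and neuron-like cells (790 early and 869 late). Hsph1 was also highest in ependymal cell-like cells, at 451 CPM, and stood at 236 and 218 in neuron-like cells, where Hspa1a was at 26.4 and 14.5. Dnajb1 was highest in the microglia-like cells that fell into the early CD45- sort, at 928 CPM, against 658, 394 and 454 in early, medium and late CD45+ microglia-like cells. Hspa8 was highest in early border or perivascular macrophage-like cells, at 1797 CPM. Bag3 peaked in fibroblast-like cells (107, 165 and 103 CPM) and was at 111 in early endothelial cell-like cells. Hspd1 peaked in late glioma or oligodendrocyte progenitor-like cells, at 274 CPM, and Hspe1 in medium T cell-like cells, at 509.

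**Figure D3:**
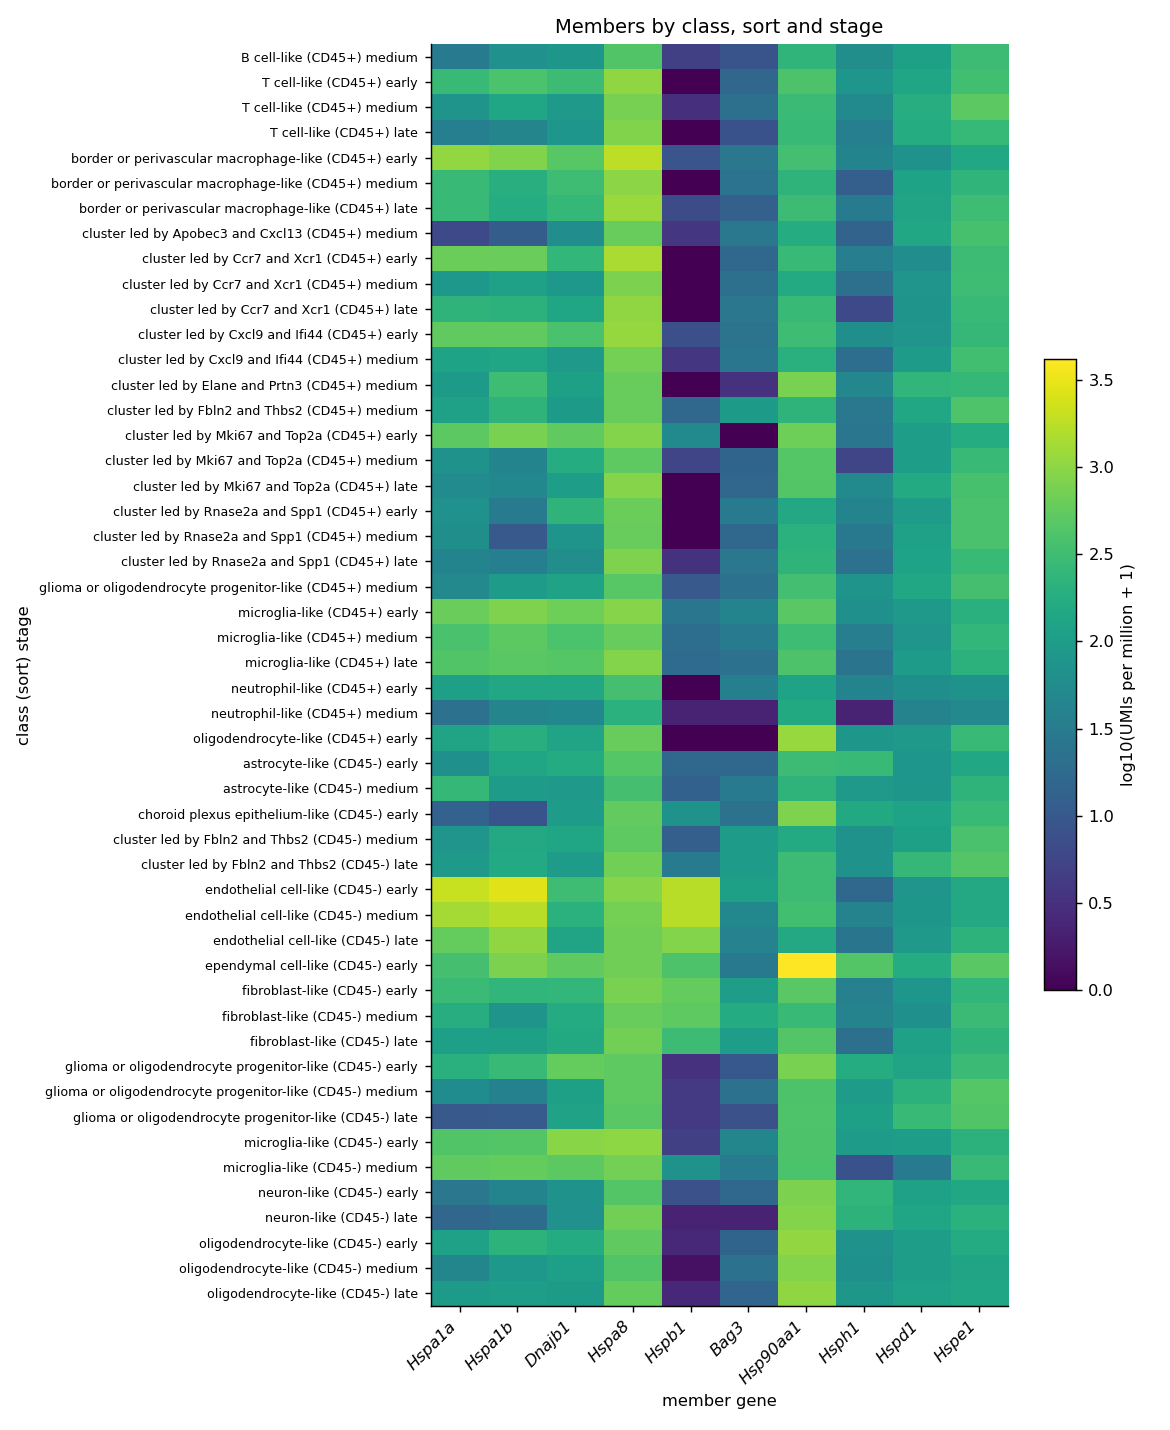
Heat map of the 10 members (columns) over the 50 groups of class, sort and stage with at least 50 cells (rows), colored by log10 of CPM plus 1, with high levels in yellow. Hspa1a and Hspa1b are brightest in endothelial cell-like cells, up to 2042 and 2844 CPM, Dnajb1 in early CD45- microglia-like cells at 928, Hspb1 in endothelial cell-like cells at up to 1704 and Hsp90aa1 in ependymal cell-like cells at 4135.

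Over the 50 groups the level of Hspa1a and that of Hspa1b had a Spearman correlation of 0.92, a description over groups that share libraries. With the sum of both, Dnajb1 had 0.78, Hspa8 0.54, Hspb1 0.40, Bag3 0.37 and Hsp90aa1 0.093, while Hsph1 had −0.15, Hspe1 −0.24 and Hspd1 −0.43. Of 14653 genes with enough UMIs, the 5 that are no members and were most alike included Gm20481 (0.91), Jund (0.71), Zfp36l1 (0.69) and Ddx5 (0.68). Gm20481 is the antisense gene over Hspa1a, whose reads cannot be separated here. Jund encodes an AP-1 transcription factor, Zfp36l1 an RNA-binding protein of mRNA decay and Ddx5 an RNA helicase.

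The ratio of Hspa1a to Hspa1b UMIs was not the same in all classes. It was 0.752 (95% interval 0.725 to 0.781) in early microglia-like cells, 0.718 (0.649 to 0.794) in early endothelial cell-like cells and 0.545 (0.483 to 0.614) in early oligodendrocyte-like cells. It was 1.25 (1.10 to 1.42) in early border or perivascular macrophage-like cells, 0.435 (0.340 to 0.552) in ependymal cell-like cells and 0.301 (0.206 to 0.431) in the medium cluster led by Elane and Prtn3. Border or perivascular macrophage-like cells thus had more Hspa1a than Hspa1b where microglia-like cells of the same sort and stage had less. The part of free RNA in these ratios was not tested. Their intervals take each UMI as independent, while UMIs of the pair were bunched in some cells (below). Whether the ratios differ beyond the spread over cells was not tested.

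Microglia-like cells were then taken cell by cell, each thinned to 1000 UMIs so that depth was equal. An Hspa1a or Hspa1b UMI was found in 34.8% of early cells (1330 of 3821, exact 95% interval 33.3 to 36.3), in 24.5% of medium cells (175 of 713, 21.4 to 27.9) and in 25.8% of late cells (246 of 952, 23.1 to 28.7). Left out as shallower were 94, 1 and 49 cells, and without thinning the shares were 42.1%, 28.6% and 31.3%. In choroid plexus epithelium-like cells of the early CD45- libraries the share was 1.78% (5 of 281) at a median depth of 4530 UMIs before thinning, against 1943 for early microglia-like cells. Those libraries are of the other sort and do not measure free RNA in the CD45+ ones. Among CD45+ cells, 10.5% of the early Rnase2a and Spp1 cluster, read above as background, had such a UMI. No background share is given for medium and late cells. With no background taken off, the transcripts were thus seen in part of the microglia-like cells at each stage, and in a larger part early.

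How many UMIs a cell held was uneven. Of early microglia-like cells 65.2% had 0 UMIs of the pair, while 17.4% had 3 or more and the highest cell had 50. In medium and late cells 75.5% and 74.2% had 0, 11.1% and 12% had 3 or more, and the highest cells had 37 and 33. The 10% of cells with the most UMIs held 66.9% of them early, 79.4% medium and 78.2% late. The ratio of the variance to the mean, 1 for counts scattered at random, was 7.92, 8.73 and 8.70 in early, medium and late cells. For Hspa8 in the same cells it was 1.39, 1.37 and 1.40, and for P2ry12 2.42, 2.75 and 2.74. Hspa1a and Hspa1b also fell in the same cells: Hspa1b was found in 55.1% (51.8 to 58.3) of early cells with Hspa1a and in 13.4% (12.2 to 14.7) of those without. The corresponding shares were 47.9% and 9.43% in medium and 50.3% and 8.90% in late cells. Endothelial cell-like cells were uneven too (9.15, 8.92 and 5.97), with 46.6% of early cells at 3 UMIs or more.

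The cells with a UMI of the pair were spread over every microglial cluster. Clustering left the members out and gave 5 clusters of microglia-like cells, led by Tnf and Gem, Tmem119 and Gpr34, Gpr34 and Siglech, Cnbd2 and Cep85, and Il1a and Tnf. In early tumors their levels of Hspa1a plus Hspa1b were 1453, 1532, 1395, 1238 and 1498 CPM, and their shares of cells with a UMI lay between 32.0% and 37.4%. Each of the 5 thus held such cells. In late tumors the clusters led by Tnf and Gem and by Il1a and Tnf, both with a cytokine gene first among the symbols kept for naming, were at 439 and 404 CPM. Those led by Tmem119 and Gpr34 and by Gpr34 and Siglech, named by homeostatic genes, were at 1116 and 1157. The late shares of cells with a UMI lay closer together, with overlapping intervals. They were 20.4% (14.2 to 27.8, 147 cells) and 18.9% (9.44 to 32.0, 53 cells) in the former pair. In the latter they were 27.6% (23.8 to 31.8) and 28.8% (22.8 to 35.5). With UMIs bunched in some cells, few cells can carry much of the CPM contrast. Medium cells were at 676 and 983 CPM in the former pair, between early and late, and at 1100 (59 cells) and 990.3 in the latter. The level of 990.3 was below early and late, while 1100 was about level with 1116 late. At 1000 UMIs a cell, the cluster led by Tmem119 and Gpr34 had a mean of 1.41 Hspa1a plus Hspa1b UMIs medium and 1.13 late. The cluster led by Cnbd2 and Cep85, which also held Tnf and Gem among its top genes, had fewer than 50 medium and late cells. Its share of cells with a UMI was 37.4% early, 16.7% medium (6 of 36 cells, 6.37 to 32.8) and 17.1% late (7 of 41, 7.15 to 32.1).

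**Figure D4:**
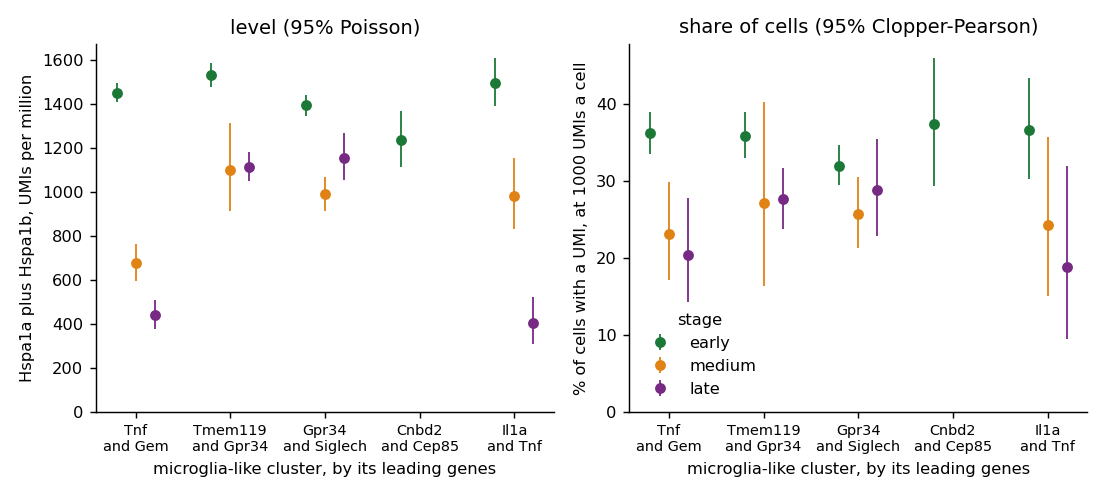
Hspa1a plus Hspa1b in the clusters of CD45+ microglia-like cells, in CPM (left) and as the percent of cells with a UMI at 1000 UMIs a cell (right), by stage. Bars are exact 95% intervals. Early points lie together at 1238 to 1532 and 32.0% to 37.4%. Late points spread from 404 to 1157 and from 18.9% to 28.8%, where the intervals of the shares overlap.

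By library, microglia-like cells held 1288 to 1638 CPM of the pair in the 4 early libraries (mean 1482 ± 146, SD, n = 4 technical libraries), 792 to 998 in the 4 medium ones (872 ± 96.9, n = 4) and 228, 922 and 952 in the 3 late ones with at least 20 such cells (701 ± 410, n = 3). Early libraries did not overlap medium or late ones. The late library at 228 CPM had 22 microglia-like cells, of run 1. Within runs 1, 2 and 3 the level was 1638, 1523 and 1390.3 early, 800, 930 and 792 medium, and 215 (23 cells), 922 and 952 late. Early stood above medium and late in each run, with log2 ratios of early over late of 2.88, 0.72 and 0.55, the first resting on those 23 cells.

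In microglia-like cells of the CD45+ sort the fold of early over late was 1.46 for Hspa1a, 1.69 for Hspa1b, 1.45 for Dnajb1, 2.74 for Hsph1 (2.04 to 3.73) and 1.90 for Bag3 (1.39 to 2.64). It was 1.22 (1.13 to 1.32) for Hsp90aa1, 1.01 (0.959 to 1.06) for Hspa8, 0.938 (0.843 to 1.04) for Hspe1 and 0.890 (0.761 to 1.04) for Hspd1. Of the 10 members 1, Hsph1, was at least 2-fold higher in early than late cells, where 4.54% of 16156 genes were, and 0 were so against medium cells, where 8.15% of 15900 genes were. The median log2 fold of the members was 0.54 against late cells and 0.61 against medium cells, beside −0.11 and 0.03 over all genes. Immediate-early genes together were lower early than late (0.820) and near level with medium cells (1.08). The mitochondrial share of UMIs, a sign of RNA quality, was 4.98% early, 4.51% medium and 3.48% late, and its part in the folds was not tested.

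Among cells of 1 stage, those with a UMI of the pair were compared with those without. Early microglia-like cells with such a UMI held more Hsp90aa1 (743 against 345 CPM, ratio 2.15, 95% interval 1.96 to 2.36), Hsph1 (102 against 44.2, 2.32, 1.79 to 3.01), Hspe1 (281 against 153, 1.84, 1.59 to 2.13) and Hspa8 (1282 against 741, 1.73, 1.62 to 1.85). Hspb1 was at 51.9 against 8.83 CPM (5.87, 3.59 to 9.97). Dnajb1, the member closest to the pair over classes, differed by less (837 against 550, 1.52, 1.40 to 1.65). The same members were higher in medium cells (Hsp90aa1 2.34, Hsph1 3.51, Hspe1 1.64, Hspa8 1.69, Dnajb1 1.78) and in late cells (2.24, 3.16, 1.58, 1.50 and 1.57), all with intervals above 1. For Bag3 and Hspd1 the ratios were 1.40 and 1.39 early, while their medium and late ratios ran from 0.797 to 2.60 with 3 of 4 intervals spanning 1.

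Genes outside the cytosolic response set these ratios in context. Hsp90ab1, the constitutive HSP90, was at 1.25, 1.08 and 1.27 in early, medium and late microglia-like cells. Hspa5, the HSP70 of the endoplasmic reticulum, was at 0.900, 0.808 and 0.842. P2ry12 was at 1.09, 1.17 and 1.38, and the immediate-early list at 1.08, 0.946 and 0.926. In microglia-like cells the immediate-early genes were thus about level between cells with and without the pair. In oligodendrocyte-like cells of early tumors they were not: the list stood at 6492 against 2060 CPM (3.15, 2.94 to 3.38) and Dnajb1 at 518 against 108 (4.79, 3.65 to 6.29). In early and late endothelial cell-like cells the list had ratios of 1.56 and 2.59.

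**Figure D5:**
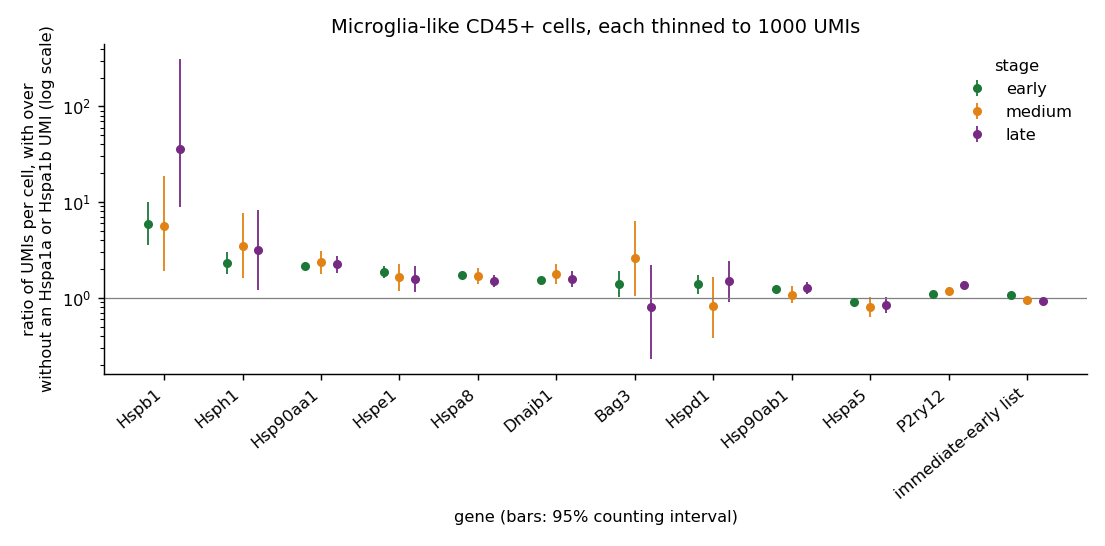
Ratio of the level in CD45+ microglia-like cells with at least 1 Hspa1a or Hspa1b UMI to that in cells without (log axis), each cell thinned to 1000 UMIs, by stage. Bars are 95% counting intervals. Hspb1, Hsph1, Hsp90aa1, Hspe1, Hspa8 and Dnajb1 lie above 1 at each stage, and Hspa5 and the immediate-early list near or below 1.

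Sorts were compared on UMIs summed by sort and tumor sample, with the tumor sample as a block (n = 3 pairs). By level, Hspa1a was at 585, 129 and 219 CPM in early, medium and late CD45+ cells and at 211, 135 and 73.0 in CD45- cells. It was higher in the CD45+ sort in 2 of the 3 pairs. Hspa1b was at 749, 172 and 238 against 323, 167 and 110, and Dnajb1 at 577, 138 and 237 against 244, 126 and 108, both higher in 3 of 3 pairs. In the fit across 18417 genes, 46.1% of genes passed (adjusted p under 0.05), 20.4% higher and 25.7% lower in CD45+ cells. No call is given for the members. Their log2 differences, CD45+ over CD45-, were 1.37 ± 0.35 (SE) for Hspa1a, 1.16 ± 0.29 for Hspa1b, 1.21 ± 0.27 for Dnajb1, 0.83 ± 0.24 for Hspa8, −1.03 ± 0.20 for Hsph1 and −2.16 ± 0.39 for Hspb1. They were −0.62 ± 0.24 for Hsp90aa1, 0.26 ± 0.24 for Hspe1, −0.13 ± 0.22 for Hspd1 and −0.05 ± 0.30 for Bag3. All are a description, since the members were chosen with these levels known. A level by sort also follows which classes the sort held, and fewer cells of a class and less RNA per cell cannot be told apart in it.

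Other chaperones were counted on lists of related genes, beside 20.4% of all genes higher and 25.7% lower in CD45+ cells. These lists, like the members, were chosen with earlier results of these data known. Their calls and adjusted p-values are thus not an independent test. Of 18 genes of endoplasmic reticulum folding and the unfolded protein response, 12 passed as higher in CD45+ cells, 0 as lower and 6 not (median log2 0.76, against −0.038 over all genes). With library sizes as the only scaling 2 of the 18 passed as higher, without the early tumor sample 4, without the medium one 3 and without the block 8. Among the 12, Dnajb11, Manf and Pdia6 were at a lower CPM in CD45+ than CD45- cells of the late tumor sample. Among the 6, Pdia4, a disulfide isomerase singled out after its values were seen, was at a lower CPM in CD45+ cells in 3 of 3 pairs (log2 0.05 on the fitted scale, edgeR adjusted p = 0.875). Herpud1, of endoplasmic reticulum degradation, was higher by 2.38 ± 0.22 (SE, edgeR adjusted p = 0.000208), Sdf2l1 by 1.73 ± 0.20 (adjusted p = 0.000482), Calr, which encodes calreticulin, by 1.02 ± 0.29 (adjusted p = 0.0241) and Hspa5 by 0.89 ± 0.26 (adjusted p = 0.0262). Small heat shock proteins other than Hspb1 went the other way, with 4 of 5 lower and 1 higher. Cryab, the alpha B crystallin of glia, was at 49.6, 71.6 and 51.3 CPM in CD45+ and 1734, 1280 and 778 in CD45- cells of early, medium and late tumors (log2 −4.03 ± 0.36, adjusted p = 0.000197). Hspb8, a partner of Bag3, was lower with log2 −3.31 (adjusted p = 0.00479) and Hspb2 with −2.50 (adjusted p = 0.00415), while Hspb3, at 5.76 CPM or less, was higher (3.11, adjusted p = 0.0153).

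Of the other HSP70 and HSP110 genes 3 of 8 were lower and 0 higher: Hspa2 (log2 −2.45, edgeR adjusted p = 0.00112), Hspa12a (−1.72, adjusted p = 0.0102) and Hspa4l (−1.02, adjusted p = 0.0173). Of the other J proteins 2 of 11 were lower, Dnajb2 (−3.11, adjusted p = 0.000126) and Dnaja4 (−1.16, adjusted p = 0.0164). Of HSP90 and its co-chaperones 5 of 19 were lower, a share near that of all genes, among them Bag4 (−1.36, adjusted p = 0.00344), Bag2 (−1.13, adjusted p = 0.0401) and Cacybp (−0.84, adjusted p = 0.0163), and 1 was higher, Fkbp5, a glucocorticoid-induced immunophilin (1.02, adjusted p = 0.00738). Hsp90ab1 did not pass (0.23 on the fitted scale, edgeR adjusted p = 0.486) and was at a lower CPM in CD45+ cells in 3 of 3 pairs. Hsf1, the heat shock factor itself, did not pass either (0.50, edgeR adjusted p = 0.0882). In edgeR 0 of 3 genes on the list of heat shock factors (Hsf1, Hsf2 and Hsbp1, whose product binds the factors) and 0 of 8 TRiC chaperonin subunits passed. At an unadjusted p under 0.05 there were 2 of the former, Hsf1 and Hsbp1 with log2 differences of opposite sign (0.50 and −0.55), and 1 of the latter, and with DESeq2 0 and 0. With library sizes as the only scaling 1 gene of each list passed as lower. On the list of factors 1 gene passed as lower without the block and without the medium tumor sample, and 1 as higher without run 3. Over all 7 lists 14 of 72 genes tested were higher and 14 lower, the share higher near that of all genes and the share lower below it, and with library sizes as the only scaling 4 were higher and 24 lower, since that scaling moved the median of all genes to −0.40. Without the early tumor sample 6 were higher and 8 lower, without the medium one 5 were higher, and without the late one 7 were lower. Hspa5 and Calr did not pass without the early sample (edgeR adjusted p = 0.125 and 0.144), without the medium sample (0.0668 and 0.103) or with library sizes only (0.146 and 0.104). Hspa4l, Hspa12a, Dnaja4, Bag2, Cacybp and Hspb3 did not pass without at least 1 of the tumor samples, and Bag2 not with DESeq2 (adjusted p = 0.0876). The endoplasmic reticulum list is not independent of the classes in each sort, and the immediate-early list was higher in CD45+ cells for 17 of 22 genes (median log2 1.84).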

How the data were processed

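Per the file headers and values, the deposited values are UMI counts for each gene in each cell, not normalized, which the authors made with RapMap in bcbio-nextgen against a mouse transcriptome with added transgenes (build mm10 in the submitters' processing notes). The study's methods describe removal of ambient RNA and doublets, but not whether this preceded the deposited counts. Stage and sort came from the deposited library annotation, the runs from the labels. The members and all lists were chosen with earlier results of these data known.

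Kept cells had at least 500 UMIs, at least 500 genes and at most 20% mitochondrial UMIs (17894 of 20811 cells). Doublet scores (scanpy 1.11.5, expected rate 6%) marked 113 of 17786 scored cells (0.635%), which were removed from the 17781 analysed. Libraries held 17 to 1751 cells and 62320 to 4226043 UMIs, with medians of 1746 to 3802 UMIs a cell. Clusters (leidenalg 0.10.2, 40 components, resolution 1) were made without the members and lists, on 2000 variable genes. Of 27 clusters 8 stayed unnamed and were called by their leading genes. Leading genes are the first 2 left after symbols of predicted genes and clones were set aside. Symbols with a digit after the first letter, such as P2ry12, were set aside too. Levels are UMIs per 1000000 UMIs (CPM) with exact Poisson 95% intervals, and shares have Clopper-Pearson intervals. Both cover counting error only. Ratios use 95% intervals and at least 10 UMIs over both groups. Poisson and ratio intervals take each UMI as independent. UMIs of Hspa1a and Hspa1b were bunched in some cells, so for them these intervals are narrower than sampling of cells would give.

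UMIs were summed to 3 tumor samples by 2 sorts and tested with edgeR 4.0.16 in R 4.3.3 (quasi-likelihood, TMM, tumor sample as block, two-sided, Benjamini-Hochberg over 18417 genes, threshold 0.05). The 2 sorts of a stage come from the same tumor sample, and their deviations from the sort means correlated by 0.383, 0.277 and 0.320 for early, medium and late. With 3 samples a sort, p-values rest on 2 residual degrees of freedom beside the spread shared over genes (common dispersion 0.0678). In simulated data for this comparison (18156 genes), 33% of genes changed 2-fold and 100% of those changed 4-fold were recovered. The simulation used 1 dispersion of 0.05 for all genes and the same means in all tumor samples. Its changed genes had a mean above 5 CPM, so recovery in the real data can be lower. Genes named were the members, up to 3 called genes with the largest rise and fall in each list, Hsf1, Hspa5, Hsp90ab1 and Cryab, and the 5 genes most like Hspa1a plus Hspa1b (at least 200 UMIs). Alternatives were DESeq2 1.42.0, other scalings, filters, blocks, cell filters, doublet rules, class rules and clusterings, and samples, runs and libraries left out. Positions follow GENCODE M21 on GRCm38. Of 10 members 8 matched the RefSeq promoter table (GRCm38.p6). Normal brain was not analysed here, and 1 allele of the model and 1 gene named by the rule are not reported here.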

Additional observations from a re-analysis of the deposited data

Results flagged for a closer look

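Each member was checked for a library far from the others in 5 of the 6 groups of sort and stage (50 sets of 4 libraries). Late CD45+ cells were not checked, since 1 of their 4 libraries held 17 cells. In 1 set a library stood apart: Dnajb1 in early CD45- cells was at 306 CPM in a library of run 3, against 216 to 232 in the other libraries, a gap of 0.830 of the whole range, just over the 95% critical value of Dixon's test, used here only to pick out a technical library. Chance gives about 1 such library in 20 sets.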

How the results depend on the processing

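Of 973 values under alternatives, 0 reversed a value that had passed its threshold. Only 373 gene values of the sort comparison and microglial log2 ratios of at least 1 in size could be marked so. Levels, shares, medians and counts of genes could only be marked as kept or moved. Beyond the set limits, 13 values of the main results and 32 others moved. Over the 7 lists, with library sizes as the only scaling 4 genes were higher and 24 lower in CD45+ cells, and leaving out 1 tumor sample or run in turn gave 5 to 14 higher and 7 to 12 lower. Without the replicate block 3466 genes were higher and 4393 lower (3754 and 4739 with it), and 11 and 13 on the lists. In microglia-like cells the level of Hspa1a plus Hspa1b was 1638 CPM early and 215 late within run 1, and medium cells were at 1052 with a clustering resolution of 2, 980 with members and lists kept in clustering and 988 as a mean over cells. Within run 1 the log2 ratios were 2.88 (early over late) and 1.03 (early over medium), and leaving out 1 library in turn gave 0.61 to 0.72 and 0.67 to 0.78. The cause was not tested. Cells whose code occurred in no other library gave 1468, 936 and 890 CPM early, medium and late, and without both late CD45+ libraries of run 1 late cells were at 938, both chosen after seeing the data. Members kept the sign of their microglial log2 ratio in 199 of 210 alternatives against late and 197 of 200 against medium cells. Of 243 alternatives for 19 named genes of the lists in the sort comparison, 24 lost and 1 gained a call. Depth limits the 2 late CD45+ libraries of run 1 (17 and 91 cells) and classes near 50 cells.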
